A study of Homo sapiens with 2 samples.

Results

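Mucin genes were examined in SBC-3, an adherent cell line of small-cell lung cancer, after transfection with an siRNA against the long noncoding RNA HOTAIR. The genes were MUC1, MUC2, MUC4, MUC5AC, MUC5B, MUC6, MUC12, MUC13, MUC16 and MUC20, and their probes were found by the RefSeq accession that the array design gives to each probe. Of these 10 genes, 8 had a matched probe, out of 19061 named genes on the array, with 19 probes and 27 spots in all, among 42402 probes measured on both arrays. MUC5AC and MUC20 had no probe whose accession matched the RefSeq table and were not analysed here. The paper lists MUC5AC among the genes upregulated after #1 siHOTAIR on these arrays, so its probe was missed by the matching. For MUC20 the array may or may not hold a probe. Names were found for 58.5% of all probes and 96.8% of those with a messenger RNA (NM_) accession, and a probe with an older accession would be missed. MUC4 and MUC2 each had 4 probes to 1 accession, and the MUC4 probes, which did not give the same result, are described in full for that reason.

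Total RNA was the starting material for 2 one-colour Agilent arrays with the dye Cy3. Cells given #1 siHOTAIR had 1 array, and the control, cells given siGFP, had 1. Both groups were the same cell line, and both carried an siRNA. With 1 array in each group no test between the groups was possible, and the culture and the array cannot be told apart from the siRNA. Fewer cells that make a transcript and less of it per cell cannot be told apart either, as the RNA was taken from whole cultures.

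Mucins are large glycoproteins whose central repeats, rich in serine and threonine, carry dense chains of O-linked sugars. MUC2, MUC5AC, MUC5B and MUC6 are secreted and form the gel of mucus, with MUC5AC and MUC5B as the main airway forms, MUC2 as the main intestinal form and MUC6 as a gastric form. MUC1, MUC4, MUC12, MUC13, MUC16 and MUC20 stay in the cell membrane, where they cover the cell surface and take part in signalling and adhesion. In the RefSeq annotation used for names, MUC2, MUC5AC and MUC5B follow each other on chromosome 11 with MUC6 close by, and MUC4 and MUC20 are neighbours on chromosome 3.

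The siRNA strands are shown because they define the only difference in treatment that the labels give. The capitals mark bases 2 to 8 of the antisense strand, the seed that guides an siRNA to its target. The strands are RNA, of 21 bases each, written 5′ to 3′.
#1 siHOTAIR antisense: uCUCUCUGuacucccguucuu
#1 siHOTAIR sense: gaacgggaguacagagagauu

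HOTAIR was measured by 1 spot, with a signal of 108 after #1 siHOTAIR and 244 after siGFP. Signals are background-subtracted intensities in the scanner's arbitrary units. The log2 ratio was taken as #1 siHOTAIR over siGFP after each array was divided by its own 75th percentile, so that a value above 0 means a higher level after #1 siHOTAIR. HOTAIR had a log2 ratio of -1.22 with a measurement SD of 0.18, which is 57.2% lower in the #1 siHOTAIR cells. The measurement SD comes from probes spotted 10 times on each array at a like signal and holds the error within an array alone, not that between cultures. The housekeeping genes were level, with log2 ratios of -0.05 and -0.02 for the probes of ACTB and 0.00 for GAPDH.

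The markers of the cell line were mixed. Of the neuroendocrine markers, DLL3, ENO2 and NEUROD1 exceeded background on both arrays, by the scanner software's mark for spots well above it, with log2 ratios of 0.21, -0.36 and -0.85. CHGA (72.3 after #1 siHOTAIR and 10.6 after siGFP, at least 2.44-fold higher) and 1 of the 3 probes of NCAM1, by 1 of its 2 spots (67.8 and 7.08 there, 9.57 and 7.33 on the other), were so on the #1 siHOTAIR array alone, and INSM1, SYP and UCHL1 on neither array. Of the epithelial markers the keratins KRT8 and KRT18 had such a mark on both arrays by the probe of highest signal, with log2 ratios of 0.10 and -0.44. A second probe of each was marked on the siGFP array alone, KRT19 was marked on the #1 siHOTAIR array alone (39.6 and 27.3), and CDH1, the adhesion protein of epithelial cells, was on neither. EPCAM was marked by 1 of its 2 spots, with 8.59 and 81.5 there against 9.83 and 7.72 on the other. Markers of ciliated, basal, blood and fibroblast cells were well above background on an array for 1 of 4, 1 of 4, 3 of 5 and 2 of 5 genes, with FOXJ1, CD3E, HBB, DCN, LUM and PDGFRB marked on neither array. CD79A, of B cells, had signals of 3632 and 3779 (#1 siHOTAIR, then siGFP) and the collagen gene COL1A2 3760 and 3742. COL1A1 had 832 and 415, a log2 ratio of 0.96. By the probe of highest signal the leukocyte gene PTPRC had a log2 ratio of 0.75 and the macrophage gene CD68 one of 0.63. Another PTPRC probe went the other way, with 12.8 after #1 siHOTAIR and 36.4 after siGFP, and was marked on the siGFP array alone. The remaining PTPRC probes were marked on neither array. The part of these markers in the mucin values was not tested.

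Of the 19 mucin probes, 8 passed the background mark on both arrays and 1 on the #1 siHOTAIR array alone, and these 9 entered the comparison. The 9 probes stood for MUC1, MUC2, MUC4, MUC6 and MUC13. At least 2-fold higher after #1 siHOTAIR was 1 of the 9 probes, a MUC4 probe, where 3.30% of the 24117 probes compared were higher by that much. At least 2-fold lower was 0 of the 9, where 4.10% of all probes compared were lower. The median log2 ratio of the 9 mucin probes was -0.02, with 4 above 0 and 5 below, and that of all probes compared was 0.01.

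**Figure D1:**
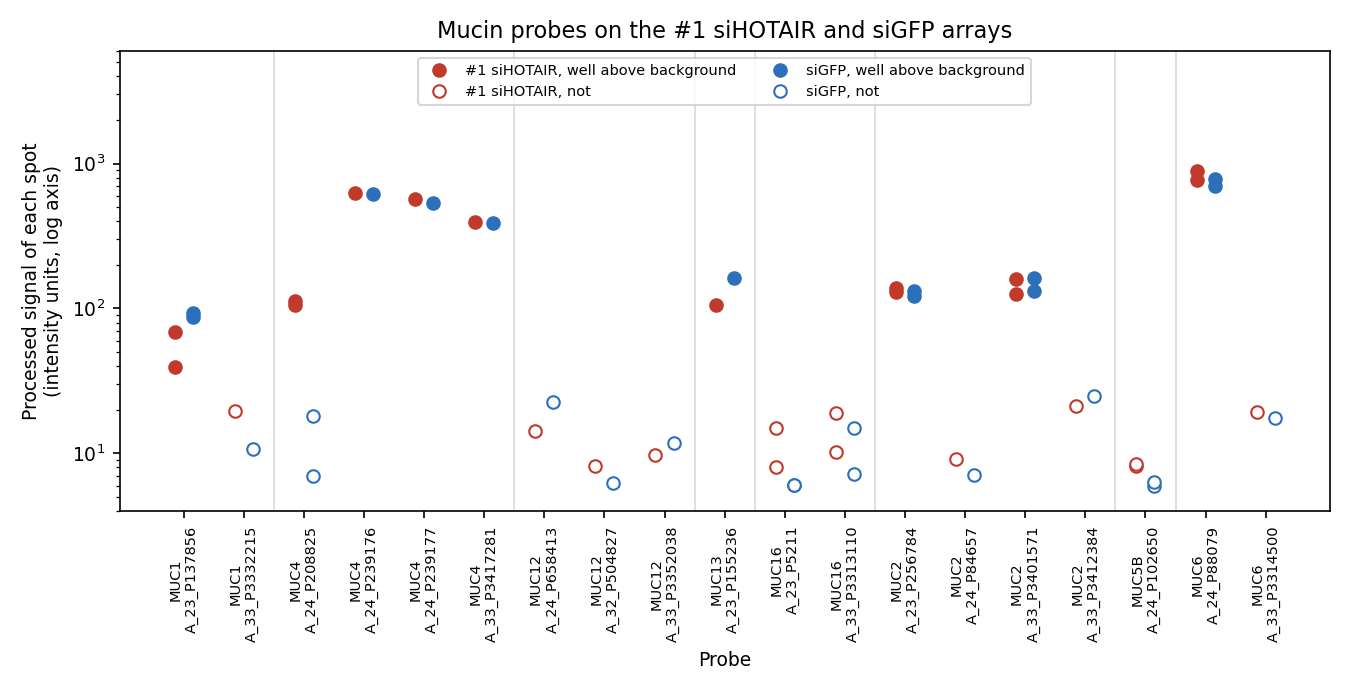
Processed signal (arbitrary units, log axis) of every mucin spot, by probe, on the #1 siHOTAIR (red) and siGFP (blue) arrays, filled where well above background and open where not. The MUC4 probe A_24_P208825 has filled points at 106 and 113 for #1 siHOTAIR and open points at 18.1 and 6.97 for siGFP, whereas the other MUC4 spots stay level.

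MUC4, a membrane mucin that binds the receptor ERBB2 at the cell surface, was covered by 4 probes that all carried the accession NM_018406. The probe A_24_P208825 was spotted in rows 285 and 345 of the 384 rows of the array. Its first spot had a signal of 106 after #1 siHOTAIR and 18.1 after siGFP, and its second spot 113 and 6.97. Both spots were higher after #1 siHOTAIR, but spots of 1 array are not replicates of the treatment. On the #1 siHOTAIR array both spots were well above background and lay 0.09 apart on the log2 scale, and on the siGFP array neither was well above background and they lay 1.38 apart.

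As the siGFP value was dim, the difference for this MUC4 probe is a lower bound. Against the lowest signal that was well above background on the siGFP array, 28.6, the probe was at least 3.71-fold higher after #1 siHOTAIR. Taken at the dim siGFP level itself, which has no reliable size, the log2 ratio was 3.24, with 2.51 for the first spot and 3.98 for the second. The siGFP signals of 18.1 and 6.97 stood beside errors of 6.42 and 7.02 that the software gave for them. Without the subtraction of background the log2 ratio of the probe was 0.88, below 2-fold.

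The unprocessed pixels gave the same order. The median pixel of the first spot was 205.5 after #1 siHOTAIR and 110 after siGFP, over local backgrounds of 63 and 66. The median pixel of the second spot was 191.5 and 99.5, over local backgrounds of 66 and 68. The local background thus differed little between the arrays at both spots, and neither spot was marked as an outlier. Within 5 rows and columns of the first spot there were 112 other spots, of which 66 were compared. These 66 had a median log2 ratio of 0.01. Around the second spot there were 113, of which 73 were compared, with a median of 0.03. At least 2-fold higher were 1 of the 66 and 3 of the 73, and at least 2-fold lower 8 of the 66 and 5 of the 73. Of all probes compared on the array, 3.30% were at least 2-fold higher and 4.10% at least 2-fold lower. The lower share around both spots was thus above that of all probes, and more so around the first. The counts are of single spots, whereas the shares are of probes. Whether place on the array had a part in the MUC4 values was not tested.

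The other MUC4 probes were level. A_24_P239176 had a signal of 627 after #1 siHOTAIR and 617 after siGFP, a log2 ratio of -0.02. A_24_P239177 gave 572 and 536, a log2 ratio of 0.05. A_33_P3417281 gave 394 and 388, a log2 ratio of -0.03. Each was 1 spot with a measurement SD of 0.13, so none of the 3 differed between the arrays by more than that error, and the signs of A_24_P239176 and A_33_P3417281 turned above 0 with spike-in scaling or with no scaling. Background was exceeded by all 3 on both arrays.

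The range of the 4 MUC4 log2 ratios, highest minus lowest, was 3.27 with the dim siGFP level taken as it stood, and that of the 3 probes on both arrays was 0.07. With dim signals raised to the lowest signal well above background on their array, the range was 1.92. MUC4 was chosen because 1 of its probes differed, so its range is a description.

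Probes that were well above background on the #1 siHOTAIR array alone entered the comparison through the array where they were high, and 474 of 682 such probes, or 69.5%, were at least 2-fold higher. Among the 125 with 2 spots the count was 82, or 65.6%. The 2-fold call of the MUC4 probe is to be read against that share, since it belongs to this class.

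Where on the MUC4 transcript each probe lies was not analysed here. The 4 probes shared an accession, and whether they detect the same transcripts was not tested.

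MUC1, a membrane mucin of most glandular epithelia, was lower after #1 siHOTAIR by its only probe well above background, with mean signals of 54.3 and 90.2. The first spot of A_23_P137856 had a signal of 69.1 in the #1 siHOTAIR cells and 93.6 in the siGFP cells, and the second 39.5 and 86.9. Both spots were lower in the #1 siHOTAIR cells, but spots of 1 array are not replicates of the treatment. The 39.5 was close to 37.3, the lowest signal well above background on that array. The log2 ratio was -0.83 with a measurement SD of 0.21, or 43.8% lower, short of 2-fold. The spots gave -0.48 and -1.18, and they lay 0.81 apart within the #1 siHOTAIR array against 0.11 within the siGFP array. The other MUC1 probe, A_33_P3332215, carried another accession and had signals of 19.7 and 10.8, well above background on neither array. The probes of MUC1 thus cannot be set against each other.

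MUC13, a membrane mucin known from the intestine, was also lower. Its only probe, A_23_P155236, was 1 spot with a signal of 106 after #1 siHOTAIR and 163 after siGFP. The log2 ratio was -0.66 with a measurement SD of 0.18, or 36.9% lower, and no second spot was there to set beside it. MUC1 and MUC13 were the members that passed 1.5-fold downwards, which 9.74% of all probes compared did, and no mucin probe passed 2-fold downwards. Both fell short of 1.5-fold with normexp (-0.43 for MUC1 and -0.54 for MUC13) and without background correction (-0.37 and -0.46), and MUC13 also with spike-in scaling (-0.58).

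The remaining membrane mucins were dim. MUC16, which carries the CA125 antigen, had 2 probes, and their spots lay between 8.01 and 19.0 on the #1 siHOTAIR array and between 6.09 and 15.0 on the siGFP array. MUC12, a mucin known from the colon, had 3 probes with signals of 14.3, 8.15 and 9.81 after #1 siHOTAIR and 22.7, 6.22 and 11.9 after siGFP. No spot of either gene was well above background, so no fold was taken. A low signal here is a limit of the measurement and does not show that the transcript was absent.

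**Figure D2:**
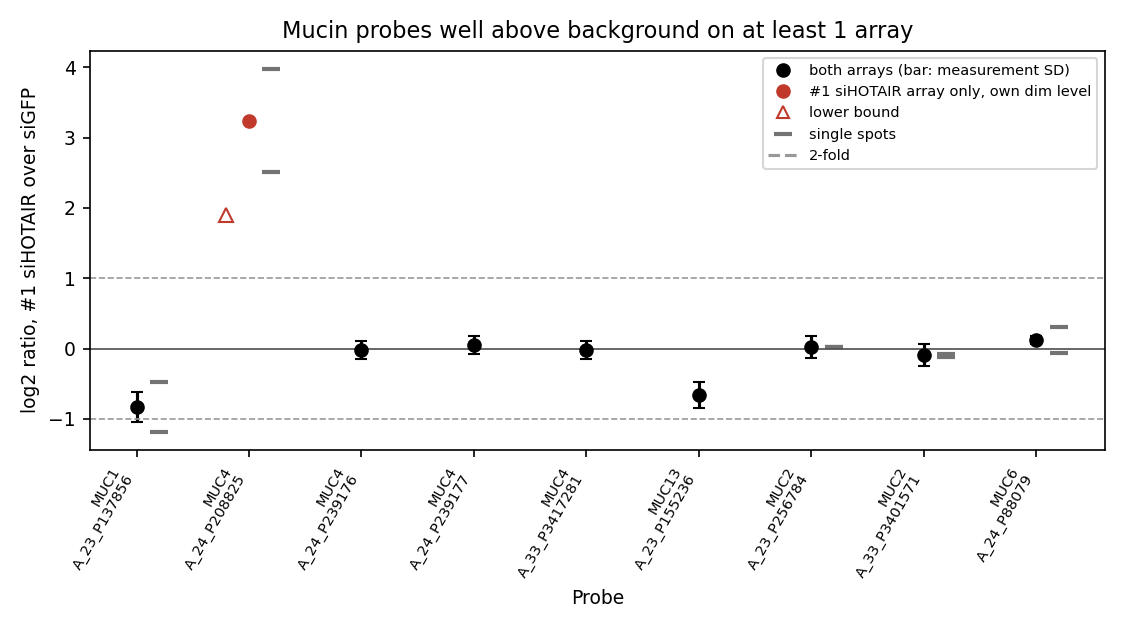
Log2 ratio (#1 siHOTAIR over siGFP) of the 9 mucin probes compared, with bars of 1 measurement SD for probes well above background on both arrays grey ticks for single spots, an open triangle for a lower bound and dashed lines at 2-fold. The MUC4 probe A_24_P208825 stands at 3.24 with a lower bound of 1.89, the 3 other MUC4 probes lie between -0.03 and 0.05, and MUC1 and MUC13 lie at -0.83 and -0.66.

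Among the secreted mucins, MUC2 was level by both of its probes well above background. A_23_P256784 gave 137 and 132 on the first spot (#1 siHOTAIR, then siGFP) and 129 and 123 on the second, a log2 ratio of 0.02. A_33_P3401571 gave 125 and 132 on the first spot and 159 and 162 on the second, a log2 ratio of -0.10. With a measurement SD of 0.16 for each, neither ratio exceeded its error, and the probes lay 0.12 apart. The sign of A_23_P256784 changed with the processing. The dim MUC2 probes gave 9.20 and 7.05 for A_24_P84657 and 21.2 and 25.0 for A_33_P3412384, well above background on neither array.

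MUC6 showed a small difference that its spots did not share. The first spot of A_24_P88079 had a signal of 889 after #1 siHOTAIR and 699 after siGFP, and the second 772 and 780. The spots disagreed in direction, with log2 ratios of 0.30 and -0.06, and the mean ratio was 0.12 with a measurement SD of 0.06. The dim MUC6 probe A_33_P3314500 gave 19.2 and 17.6. MUC5B, the main airway form with a matched probe here, gave 8.19 and 5.98 on the first spot and 8.40 and 6.32 on the second. Both MUC5B spots were well above background on neither array, and MUC5B was therefore not detectable at these signals.

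The 10 dim mucin probes had signals from 8.15 to 21.2 on the #1 siHOTAIR array (median 12.9) and from 6.10 to 25.0 on the siGFP array (median 11.0). Their median log2 ratio was 0.34, and that of all 18285 probes well above background on neither array was also 0.34. The dim mucin probes therefore stood where dim probes stood as a whole.

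**Figure D3:**
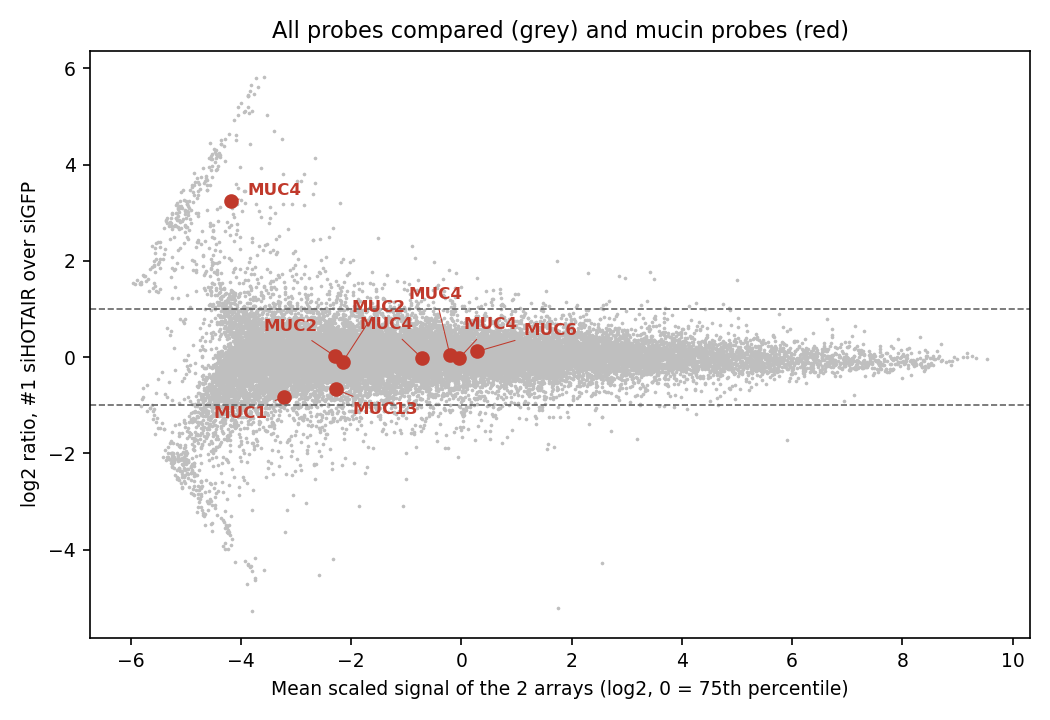
Log2 ratio (#1 siHOTAIR over siGFP) against mean scaled signal (log2, 0 is the 75th percentile of an array) of all 24117 probes compared in grey and the 9 mucin probes in red, dashed lines at 2-fold. The MUC4 probe at 3.24 lies at the dim end, where the grey points spread most, and the 8 other mucin probes lie within 2-fold.

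The genes around the mucins were counted by the probe with the highest mean signal of each gene. By that choice MUC4 counts as level, and the 5 mucin genes compared had a median log2 ratio of -0.10 with 0 past 2-fold, where 2.74% of 13014 named genes were at least 2-fold higher and 3.41% lower. Of 16 other mucins and mucin-like proteins, 13 had a probe and 6 were compared, with a median of 0.13 and none past 2-fold. The adhesion protein MCAM had signals of 5101 and 3910 (log2 ratio 0.34), and the sialomucin CD34 2737 and 2341 (log2 ratio 0.18). EMCN, MUC7, MUC15, MUC17, MUC21, MUCL1 and PARM1 were well above background on neither array.

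The GALNT family, the enzymes that attach the first sugar of a mucin O-glycan, held 3 genes past 2-fold. All 17 genes had a probe, 7 were compared, 3 were at least 2-fold higher after #1 siHOTAIR and none was lower, where 2.74% of 13014 named genes were higher and 3.41% lower. The median log2 ratio was 0.88 (0.57 for the 6 on both arrays). GALNT10 had a signal of 154 after #1 siHOTAIR and 47.6 after siGFP, a log2 ratio of 1.65 with a measurement SD of 0.30. GALNT18 had 75.9 and 32.0, a log2 ratio of 1.20 with a measurement SD of 0.43. GALNT9 had 71.8 and 11.1, at least 2.43-fold, and was well above background on the #1 siHOTAIR array alone, like the 682 probes of which 69.5% were at least 2-fold higher.

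Each of the 3 rested on 1 spot, and with the normexp background model or without any background subtraction the count was 0. The brightest members of the family were GALNT16, with 3104 and 1635 (log2 ratio 0.88, measurement SD 0.08), and GALNT2, with 425 and 414 (log2 ratio -0.01). The bright signals of this family were thus higher for GALNT16, short of 2-fold, and level for GALNT2.

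Among enzymes that extend and cap O-glycans no gene passed 2-fold. Of 17 genes, 16 had a probe and 8 were compared, with a median of 0.22. The sialyltransferases ST3GAL4 and ST3GAL2 had log2 ratios of 0.07 and 0.23. C1GALT1C1, the chaperone of the core enzyme C1GALT1, had signals of 617 after #1 siHOTAIR and 986 after siGFP, a log2 ratio of -0.72 with a measurement SD of 0.07, and was named after its values were seen.

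Goblet and club cell genes, which mark the airway cells that secrete mucus, were counted too. All 18 had a probe, 9 were compared, the median was 0.08 and none passed 2-fold. The secretory protein SCGB3A1 had signals of 14660 and 13445, a log2 ratio of 0.08, and the transcription factor CREB3L1 992 and 898, a log2 ratio of 0.10. FOXA1, FOXA2, ATOH1, CLCA1, AGR3, TFF3, BPIFB1, ERN2 and KLF4 were well above background on neither array. The goblet cell regulator SPDEF, by contrast, had signals of 103 and 91.7, a log2 ratio of 0.09. FOXA3, with 37.6 and 29.7, was well above background on the #1 siHOTAIR array alone. AGR2, which helps fold mucins, gave a log2 ratio of -0.44, and the trefoil genes TFF1 and TFF2 gave -0.09 and -0.10. FCGBP, a protein of mucus, had 35.5 and 52.3, at least 1.45-fold lower, and was well above background on the siGFP array alone. SCGB1A1, the club cell secretory protein, gave a log2 ratio of 0.32. The genes from SPDEF on were named after their values were seen, and complete the 9 compared.

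Partners of the membrane mucins were also without a member past 2-fold. All 12 had a probe, 10 were compared and the median was -0.02. The galectins LGALS1 and LGALS3, which bind mucin sugars, had log2 ratios of 0.52 and -0.06. ERBB2, the receptor that binds MUC4, was added to these after its values were seen, and had signals of 1476 after #1 siHOTAIR and 1591 after siGFP, a log2 ratio of -0.15. ERBB3 and MSLN, the ligand of MUC16, were well above background on neither array.

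Among 18 regulators of mucin genes, 13 were compared with a median of 0.10, and none passed 2-fold by its brightest probe. The transcription factor SP3 had signals of 1819 after #1 siHOTAIR and 1641 after siGFP, a log2 ratio of 0.10. GATA4, named after its values were seen, had 3 probes. The first was well above background on the siGFP array alone, at least 1.01-fold lower. Its spots gave 19.1 and 8.22 after #1 siHOTAIR and 44.4 and 29.9 after siGFP, and only the 44.4 carried the mark. Another, on both arrays, gave 34.9 and 63.6, a log2 ratio of -0.93 with a measurement SD of 0.35. On the #1 siHOTAIR array it passed by 1 of its 2 spots (40.5, against 29.3 on the other). The third GATA4 probe gave 9.59 and 7.42, well above background on neither array.

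**Figure D4:**
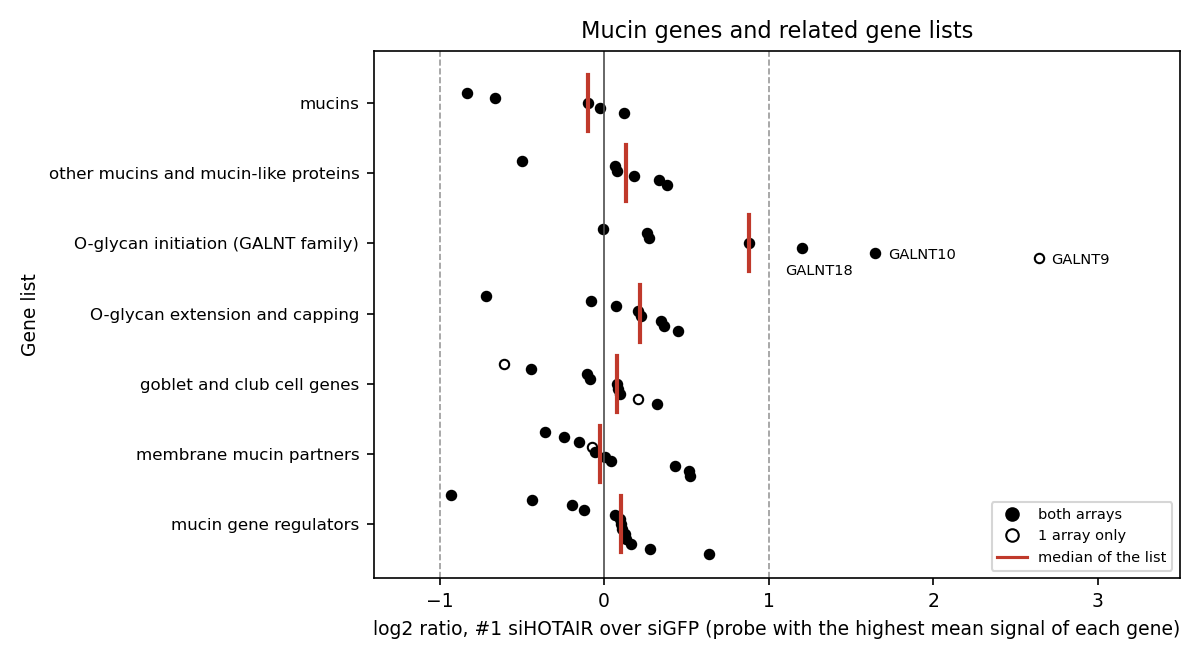
Log2 ratio (#1 siHOTAIR over siGFP) of each gene compared, by the probe with the highest mean signal, in the mucins and the related lists; filled points were well above background on both arrays, open points on 1, red bars mark medians and dashed lines 2-fold. GALNT10, GALNT18 and GALNT9 lie beyond 2-fold, at the right, and the mucin median is -0.10.

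The promoters of the pair of membrane mucins on chromosome 3 with compared probes, MUC4 and MUC13, are shown for context, since HOTAIR is known for work with chromatin regulators. Each is the stretch of 250 bases before the gene's start in RefSeq (GRCh38.p14), on the minus strand, 5′ to 3′, with each CpG, the site of DNA methylation, in capitals. MUC4 lies at chr3:195811930-195812179 and MUC13 at chr3:124934752-124935001.
MUC4: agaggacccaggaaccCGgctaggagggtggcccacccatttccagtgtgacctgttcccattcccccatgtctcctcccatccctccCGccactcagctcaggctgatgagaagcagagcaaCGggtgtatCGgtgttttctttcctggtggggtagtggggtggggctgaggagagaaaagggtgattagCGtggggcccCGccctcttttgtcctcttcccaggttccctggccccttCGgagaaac
MUC13: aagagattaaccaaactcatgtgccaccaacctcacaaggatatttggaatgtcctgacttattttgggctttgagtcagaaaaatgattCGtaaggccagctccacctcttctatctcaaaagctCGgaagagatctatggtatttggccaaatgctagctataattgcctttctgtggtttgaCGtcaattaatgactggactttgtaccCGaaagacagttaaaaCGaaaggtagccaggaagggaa

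The MUC4 stretch had a GC content of 60.4% and 7 CpG, and the MUC13 stretch 41.6% and 5 CpG. The medians of all 35116 promoters of the same length were 58% and 11. Both stretches thus held fewer CpG than the median promoter. No binding or methylation was measured in these samples, so the sequences bear on no ratio given here.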

How the data were processed

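Expression was measured in SBC-3 cells on 2 SurePrint G3 arrays, 1 for #1 siHOTAIR and 1 for siGFP. Groups were taken from the sample labels. The authors deposited scanner output from Agilent Feature Extraction 10.10.1.1, whose processed signal is an intensity after background subtraction and spatial detrending, without scaling between arrays. In very dim spots the software puts a surrogate value in place of the signal. The value table of the series held the background-subtracted intensity of the same spots (largest difference 0) and served as an alternative.

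Signals were divided by each array's 75th percentile over 58717 spots that were not controls (650.3 for #1 siHOTAIR, 629.9 for siGFP) and put on the log2 scale. Spots that the software marked as outliers were dropped (393 and 375), and a probe's value was the mean over its remaining spots. The software marked 55.5% and 58.3% of spots as well above background. Probes entered the comparison where 50% or more of their spots carried this mark on either array. A dim side was set at the higher of its own signal and the lowest signal well above background on that array (37.3 and 28.6), which gives "at least" folds. No spot was saturated. The number of arrays limits the precision. With 1 array in each group, no P-value was computed.

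Gene names came from RefSeq accessions (table of GRCh38.p14, used for names and promoters), which named 58.5% of 42405 probes. The siRNA strands came from the study's supplement. Every mucin probe and spot is given. Of each other list the genes past 2-fold and the 2 with the highest mean signal are named, apart from items not reported here. The members and lists were chosen with earlier results of these data known. Python 3.11.15, pandas 2.3.3 and R 4.3.3 with limma 3.58.1 were used, and the steps were tested on simulated data.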

Additional observations from a re-analysis of the deposited data

How the results depend on the processing

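Under all alternatives run, the median log2 ratio of the mucin probes lay between -0.05 and 0.06. Scaling (quantile, median, spike-in or none) and keeping outlier spots moved the MUC4 probe range to between 3.20 and 3.27. The MUC4 range was 1.10 with normexp, 0.95 without background correction, 2.97 from the series value table, 1.92 with dim signals at their bound and 0.075 with probes well above background on both arrays only. The number of mucin probes at least 2-fold higher was 0 instead of 1 without background correction and 0 with probes on both arrays only, since the latter leaves out the dim MUC4 probe. At a limit of 1.5-fold, 2 of 9 mucin probes instead of 0 were lower, beside 9.74% of all probes compared. Of 81 values of single mucin probes under alternatives, 73 moved by less than the measurement SD, 8 by more, and 7 had the opposite sign, none of a probe past 2-fold. MUC1 ranged from -0.86 to -0.37 and MUC13 from -0.69 to -0.46. For the GALNT family, with alternatives chosen after seeing the data, the count of 3 higher genes was 0 with normexp and 0 without background correction, and 2 on both arrays. Its median of 0.88 became 0.40, 0.37 and 0.57 in that order, and 0.34 with no filter on dim probes. The normexp setting added an offset of 50 to each signal, and the setting without correction left the background in it. Both bring the ratios of dim probes nearer to 0 by construction. At least 2-fold higher were then 0.94% and 0.72% of all probes compared, against 3.30%. Beyond this and the smaller number of probes that the filter on both arrays leaves, the cause of these shifts was not tested. No paired analysis was possible because each group held 1 array. Signal over background limits what the dim probes of MUC5B, MUC12 and MUC16 can show, and no replicate bears on MUC1, MUC4 or MUC13.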
